A study of Mus musculus with 6 samples.

Results

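The genes described here are 10 by which bone marrow stroma supports blood cells or is recognised: Cxcl12, Kitl, Vcam1, Bst1, Angpt1, Il7, Lepr, Nes, Ebf1 and Foxc1. They were chosen by name from the known biology of the marrow niche, with earlier results of these data known, and are 10 of the 27263 genes in the deposited tables. RNA was sequenced from primary bone marrow stromal cells of C57BL/6 mice, isolated from tibia and femur marrow by a Sca-1+ CD29+ CD45- CD11b- sort and grown in α-MEM with 10% serum. The 3 libraries labelled GCA came from cells given rGCA at 50 nM for 3 days, and the 3 libraries labelled PBS from cells given PBS, the buffer control, over the same time. GCA is the gene symbol of grancalcin, a calcium-binding protein of neutrophils and macrophages; the labels give the abbreviation only. They do not say whether the replicates were separate animals or cultures, nor the animals' sex or age or whether animals were pooled, so p-values measure the spread between these libraries, which may be technical. The libraries held RNA of myeloid cells in spite of the sort: all 20 monocyte and macrophage markers had values, with summed levels of 18438 to 19498 FPKM in GCA libraries and 20748 to 23016 FPKM in PBS libraries. Lyz2 alone made up 8078 to 9691 FPKM in GCA libraries and 12625 to 14220 FPKM in PBS libraries; the other 19 markers together ran the other way, with 9807 to 10388 FPKM in GCA libraries and 8122 to 8985 FPKM in PBS libraries. In bulk RNA, fewer cells of a type and less RNA per cell cannot be told apart.

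Stromal cells around marrow sinusoids hold blood stem cells and lymphoid progenitors in place and feed them. Cxcl12 draws and retains cells that carry its receptor Cxcr4, Kitl (stem cell factor) keeps Kit-bearing progenitors alive, Il7 drives B cell precursors, and Vcam1 gives them an integrin foothold. The cells that make most of these factors in adult marrow are marked by Lepr, and their identity depends on the transcription factors Ebf1 and Foxc1.

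Vcam1 rose and Bst1 fell with GCA, at ratios of GCA to PBS means of 1.86 and 0.501, while Cxcl12, Kitl, Angpt1, Il7, Nes, Ebf1 and Foxc1 did not pass the test. Lepr lay under the filter on low values. Levels are in FPKM, which counts fragments relative to the length of a gene's exons in kilobases and to the library's size, and differences are GCA minus PBS on the log2(FPKM + 1) scale, with the standard error (SE) and the adjusted p (Benjamini-Hochberg over 11984 genes) of limma. Over all genes tested, 17.9% passed at an adjusted p under 0.05, 11.5% as higher and 6.43% as lower, so the 2 calls among 9 members tested (22.2%) stand near that background. Of all calls 64.2% were higher, against 53.8% under quantile normalization. The calls of Vcam1 and Bst1 held under all 16 alternatives run. The 3 GCA values lay wholly above or wholly below the 3 PBS values in 6 of 9 tested members, against 38.5% of all tested genes. The median difference of the 9 tested members was -0.06, against 0.01 over all tested genes.

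Vcam1 (vascular cell adhesion molecule, ENSMUSG00000027962, chr3:116109949-116129688 on GRCm38) is a surface protein that binds the integrin α4β1 on blood cells. Its level was 55.6, 50.0 and 53.8 FPKM in the GCA libraries, against 27.9, 30.1 and 27.7 FPKM in the PBS libraries. Every GCA library lay above every PBS library by a wide margin. The means were 53.1 ± 2.83 FPKM with GCA and 28.6 ± 1.34 FPKM with PBS (SD, n = 3 each), a ratio of 1.86, and the difference was 0.87 (SE 0.057, limma adjusted p = 0.00025). These levels rest on means of 8496 fragments per library with GCA and 4582 with PBS. An antisense gene, Gm43109, shares 61 bases, or 0.688%, of Vcam1's exons.

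Bst1 (bone marrow stromal antigen, also called CD157, ENSMUSG00000029082, chr5:43818885-43843986) is a GPI-anchored surface enzyme that consumes NAD and was found on stroma that supports pre-B cells. Its level was 43.7, 58.0 and 43.3 FPKM in the GCA libraries, against 92.0, 96.9 and 100.4 FPKM in the PBS libraries. The groups were far apart, and GCA replicate 2 was the highest of its group. The means were 48.3 ± 8.38 FPKM with GCA and 96.4 ± 4.27 FPKM with PBS (SD, n = 3 each), a ratio of 0.501, and the difference was -0.99 (SE 0.111, limma adjusted p = 0.00174). Without GCA replicate 2 the difference was -1.13 (limma adjusted p = 6.6e-05).

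Bst1 has a paralog, Cd38, that does the same chemistry and starts 24567 bases beyond Bst1's end on the same strand, and near-identical copies can share reads. Over 804 aligned bases of coding sequence the genes were 61.3% identical, and their longest shared run was 12 bases. The reads were of 150 bp. The coding sequences compared were 936 bases of Bst1 and 915 of Cd38, out of 3317 and 3890 exon bases. The rest of the exons was not compared, and sharing of reads was not tested. The stretches around that run are shown to let the difference between the paralogs be seen, 5′ to 3′ from GENCODE M21, with the shared run in capitals; they are coding bases 75 to 176 of Bst1 and 147 to 248 of Cd38.
Bst1: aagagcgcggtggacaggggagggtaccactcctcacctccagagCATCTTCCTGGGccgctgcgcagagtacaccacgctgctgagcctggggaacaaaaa
Cd38: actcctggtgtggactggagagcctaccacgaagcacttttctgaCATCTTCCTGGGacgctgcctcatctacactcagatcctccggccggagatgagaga
Cd38 was at 110.0, 134.8 and 96.5 FPKM in the GCA libraries, against 94.3, 98.9 and 91.1 FPKM in the PBS libraries. Its groups overlapped and it did not pass, with a difference of 0.25 (limma adjusted p = 0.178). Of 16 alternatives, Cd38 passed in 1 only, without GCA replicate 3 (limma adjusted p = 0.0437), in the direction opposite to Bst1.

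**Figure D1:**
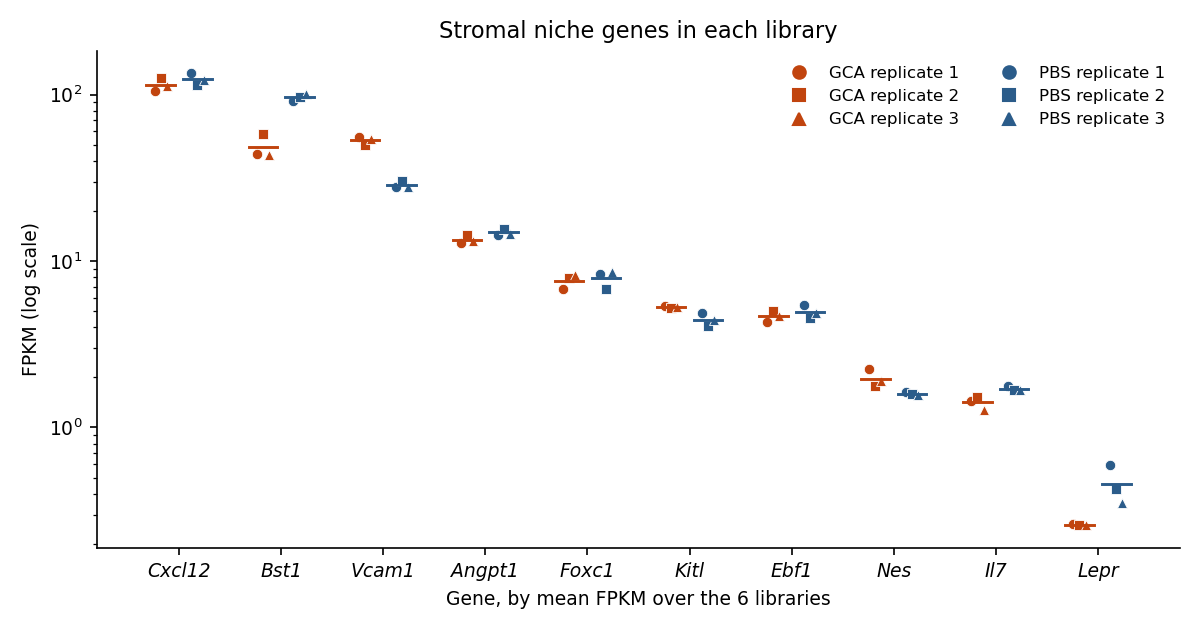
Level of each of the 10 genes in FPKM in the 3 GCA and the 3 PBS libraries; the level axis is logarithmic, points are single libraries and lines are group means. The GCA points lie above the PBS points for Vcam1 and below them for Bst1 with a wide gap, and the points of Cxcl12, Ebf1 and Foxc1 overlap.

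Among the secreted factors, Cxcl12 (ENSMUSG00000061353, chr6:117168535-117181367) had the highest level of the 10 genes in both groups. It was at 105.7, 125.5 and 112.8 FPKM in the GCA libraries, against 134.1, 113.7 and 122.8 FPKM in the PBS libraries. The groups overlapped, and the difference of -0.11 (SE 0.080, limma adjusted p = 0.394) did not pass. Its mean over the 6 libraries was higher than that of 97.1% of tested genes.

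Kitl (ENSMUSG00000019966, chr10:100015630-100100416) was at 5.33, 5.25 and 5.29 FPKM in the GCA libraries, against 4.85, 4.05 and 4.45 FPKM in the PBS libraries. All GCA values lay above all PBS values, at a ratio of means of 1.19. The difference was 0.21 (SE 0.066), with a limma adjusted p of 0.0646, and in limma-voom on the fragments recovered from the FPKM values it passed (adjusted p = 0.0305). It also passed without PBS replicate 1 (limma adjusted p = 0.0443), and in all in 3 of 15 alternatives. Without PBS replicate 2 the limma adjusted p was 0.178, and with no filter 0.163. The mean depth was 563 fragments per library with GCA and 476 with PBS.

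Angpt1 (angiopoietin 1, ENSMUSG00000022309, chr15:42424723-42676977), the ligand of the receptor Tek on vessels and stem cells, was at 12.8, 14.3 and 13.1 FPKM in the GCA libraries, against 14.4, 15.6 and 14.5 FPKM in the PBS libraries. The highest GCA value lay just under the lowest PBS value. The difference of -0.14 (SE 0.058, limma adjusted p = 0.145) did not pass. An antisense gene, Gm17473, shares 14.2% of its exon bases, and no source used here gives the strand setting of the counting. Angpt1 was the 1 member whose values gave whole fragments in 0 of 6 libraries with the GENCODE M21 exon length, and the reason was not tested.

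Il7 (ENSMUSG00000040329, chr3:7569994-7613760) was low, at 1.43, 1.53 and 1.28 FPKM in the GCA libraries, against 1.77, 1.67 and 1.67 FPKM in the PBS libraries. Every GCA value lay below every PBS value, but the difference of -0.17 (SE 0.076, limma adjusted p = 0.172) did not pass. It rests on means of 144 fragments per library with GCA and 175 with PBS.

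Lepr (leptin receptor, ENSMUSG00000057722, chr4:101717404-101815352), the surface marker of the perivascular stroma that makes Cxcl12 and Kitl in vivo, was at 0.262, 0.259 and 0.259 FPKM in the GCA libraries, against 0.591, 0.430 and 0.350 FPKM in the PBS libraries. Its mean was under the 1 FPKM needed to enter the test. These levels are 33, 32 and 34 fragments in the GCA libraries, against 76, 55 and 44 in the PBS libraries, so the groups do not overlap. With the filter at 0.1 FPKM it did not pass (limma adjusted p = 0.196). In limma-voom on genes with a mean of at least 10 fragments, chosen after seeing the data, the difference was -0.77 (SE 0.244, adjusted p = 0.031), where 19.9% of 14519 genes passed.

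Nes (nestin, ENSMUSG00000004891, chr3:87971078-87980451), an intermediate filament protein used to mark perivascular stromal cells, was at 2.23, 1.77 and 1.89 FPKM in the GCA libraries, against 1.64, 1.59 and 1.56 FPKM in the PBS libraries. GCA values lay above PBS values throughout, and the difference of 0.19 (SE 0.081, limma adjusted p = 0.152) did not pass.

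The transcription factors gave no call. Ebf1 (early B cell factor, ENSMUSG00000057098, chr11:44617317-45008091), which keeps marrow stromal cells able to support blood formation, was at 4.32, 5.01 and 4.71 FPKM in the GCA libraries, against 5.42, 4.54 and 4.85 FPKM in the PBS libraries. Its groups overlapped, with a difference of -0.06 (SE 0.076, limma adjusted p = 0.605). Foxc1 (ENSMUSG00000050295, chr13:31806633-31812476), a forkhead factor needed for Cxcl12-rich stroma, was at 6.80, 7.87 and 8.20 FPKM in the GCA libraries, against 8.38, 6.81 and 8.64 FPKM in the PBS libraries. Its groups overlapped too, with a difference of -0.05 (SE 0.096, limma adjusted p = 0.763), and the sign changed without GCA replicate 1 (0.02) and without PBS replicate 3 (0.0067).

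**Figure D2:**
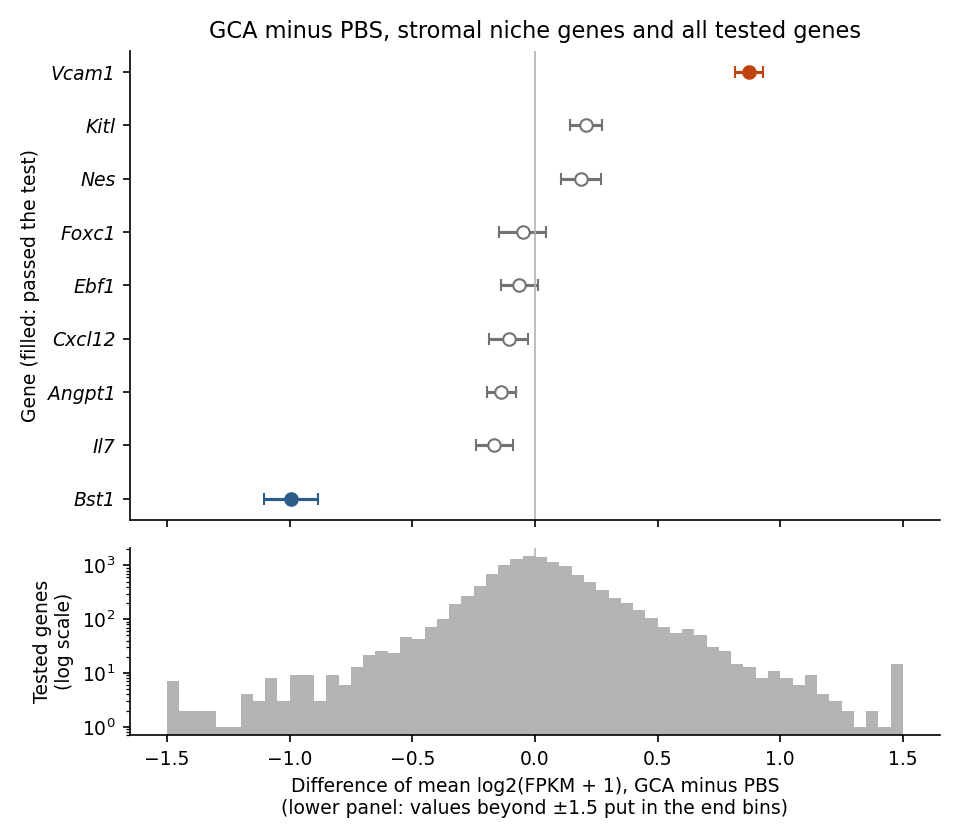
Difference GCA minus PBS on the log2(FPKM + 1) scale for the 9 tested genes, with bars of 1 SE and filled points for genes that passed; the lower panel counts all 11984 tested genes by their difference, on a log axis. Vcam1 at 0.87 and Bst1 at -0.99 stand apart from the other 7, which lie between -0.17 and 0.21.

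In GCA libraries the order of levels was Cxcl12, Vcam1, Bst1, Angpt1, Foxc1, Kitl, Ebf1, Nes, Il7 and Lepr, and the libraries' values of Vcam1 and Bst1 overlapped. In PBS libraries it was Cxcl12, Bst1, Vcam1, Angpt1, Foxc1, Ebf1, Kitl, Il7, Nes and Lepr, and those of Ebf1 and Kitl overlapped. Bst1 thus stood above Vcam1 in every PBS library, while with GCA it was above Vcam1 in replicate 2 alone.

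Of 14 receptors and partners of these factors, 7 were tested, and 1 rose, 1 fell and 5 did not pass. That is 28.6% called, against 17.9% of all tested genes. The other 7 lay under the filter. Cxcr4, the Cxcl12 receptor, fell to 26.1 ± 3.09 FPKM with GCA, against 38.1 ± 1.78 FPKM with PBS, a difference of -0.54 (limma adjusted p = 0.00476). The scavenging receptor Ackr3 was at 1.05 FPKM with GCA and 1.02 FPKM with PBS (limma adjusted p = 0.913). Itga4, the α4 integrin that binds Vcam1, rose to 4.22 ± 0.40 FPKM with GCA, against 3.22 ± 0.26 FPKM with PBS (difference 0.30, limma adjusted p = 0.0323), a call lost without GCA replicate 1 or 3 or PBS replicate 2 or 3 (0.0789 to 0.108). Its partner Itgb1 was at 313 ± 21.1 FPKM with GCA and 348 ± 17.6 FPKM with PBS and did not pass (limma adjusted p = 0.133). Kit was at 0.018 FPKM with GCA and 0.050 FPKM with PBS, Tek at 0.083 FPKM with GCA and 0.094 FPKM with PBS, and Lep was listed at 0 in 5 of 6 libraries. Il7r, under the filter, was at 0.436, 0.622 and 0.685 FPKM in the GCA libraries, against 1.15, 0.944 and 1.08 FPKM in the PBS libraries. All its GCA values lay below all PBS values. With the filter set at 0.1 FPKM its limma adjusted p was 0.0469, and with no filter 0.0819. In limma-voom with a mean of at least 10 fragments its difference was -0.87 (adjusted p = 0.00452).

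Of 32 other secreted niche signals, 24 were tested, and 2 rose, 5 fell and 17 did not pass, with a median difference of -0.08, against 0.01 over all tested genes. The share called was 29.2%, against 17.9% of all tested genes. Spp1 (osteopontin, a matrix protein that restrains stem cell number) fell to 1655 ± 155 FPKM with GCA, against 3889 ± 511 FPKM with PBS (difference -1.23, limma adjusted p = 0.000518). Jag1, a Notch ligand, fell to 4.34 ± 0.745 FPKM with GCA, against 6.97 ± 0.080 FPKM with PBS (-0.59, limma adjusted p = 0.00658). Postn (periostin, a matrix protein) fell to 414 ± 39.5 FPKM with GCA, against 549 ± 6.59 FPKM with PBS (-0.41, limma adjusted p = 0.00661). Angptl4 and Igf1 fell with differences of -0.44 and -0.32 (limma adjusted p = 0.02 and 0.0249). The 2 that rose were Tgfb1, a cytokine that keeps stem cells quiet, at 44.2 ± 1.67 FPKM with GCA and 37.4 ± 0.669 FPKM with PBS (0.23, limma adjusted p = 0.0118), and Gas6, a ligand of TAM receptors, which lies outside the naming rule and is given after its values were seen, at 482 FPKM with GCA and 395 FPKM with PBS (0.29, limma adjusted p = 0.0342). Without PBS replicate 3, Tgfb1 had an adjusted p of 0.0524 and Angptl4 of 0.055; Angptl4 was also lost without PBS replicate 1 (0.0657). Igf1 was lost without GCA replicate 1 or any PBS library (0.0568 to 0.0856), and Gas6 in 5 of 6 such fits (0.0601 to 0.112). The count of higher genes was 1 without GCA replicate 1 or 3 or any PBS library, and it was 5 with the replicate block. The count of lower genes was 3 without PBS replicate 1 or 3 and with no filter.

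Among 30 regulators and markers of niche stroma, 20 were tested, and 0 rose, 5 fell and 15 did not pass. The share called was 25%, while over all tested genes 11.5% rose and 6.43% fell. In limma-voom with a mean of at least 10 fragments, 8 fell. That fit called more genes, 19.9% of 14519, with 1158 lower, against 771 lower in the reported fit. The 5 were Alcam, an adhesion molecule, at 6.08 ± 0.831 FPKM with GCA and 10.7 ± 1.18 FPKM with PBS (-0.73, limma adjusted p = 0.00373), then Pdgfrb, Snai2, Prrx1 and Cdh2. Pdgfrb, the platelet-derived growth factor receptor of mesenchymal cells, was at 21.95 FPKM with GCA and 29.29 FPKM with PBS (-0.40, limma adjusted p = 0.00847). Snai2, a zinc finger repressor, was at 16.1 FPKM with GCA and 20.4 FPKM with PBS (-0.32, limma adjusted p = 0.00939). Prrx1, a homeobox factor of limb mesenchyme, was at 19.3 FPKM with GCA and 23.3 FPKM with PBS (-0.26, limma adjusted p = 0.0112). Cdh2 (N-cadherin) was at 16.2 FPKM with GCA and 19.8 FPKM with PBS (-0.28), and its call (limma adjusted p = 0.0386) was lost without any 1 of 5 libraries, all but GCA replicate 3. Of the paralogs, Ebf3 was at 2.49 FPKM with GCA and 2.65 FPKM with PBS (limma adjusted p = 0.676), Foxc2 at 3.40 FPKM with GCA and 3.54 FPKM with PBS (0.668), and Ebf2, under the filter, at 0.230 FPKM with GCA and 0.315 FPKM with PBS.

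Beside Vcam1, 12 of 17 related adhesion molecules were tested, and 3 rose, 1 fell and 8 did not pass. That is 33.3% called, against 17.9% of all tested genes. Selplg (PSGL-1, the selectin ligand of leukocytes) rose to 23.9 ± 0.499 FPKM with GCA, against 14.6 ± 0.588 FPKM with PBS (0.68, limma adjusted p = 0.000275). Sirpa, a myeloid receptor, and its ligand Cd47 rose with differences of 0.30 and 0.21 (limma adjusted p = 0.00618 and 0.0202), and Itgav, the αv integrin, fell to 13.1 FPKM with GCA, against 17.7 FPKM with PBS (-0.41, limma adjusted p = 0.00179). Cd47 was not called under quantile normalization (0.0657) or without GCA replicate 1 or PBS replicate 2 or 3 (0.071 to 0.0764). The count of lower genes was 3 without GCA replicate 2.

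Beside Bst1, 15 of 20 genes of NAD metabolism were tested, and 3 rose, 1 fell and 11 did not pass, with a median of 0.14. That is 26.7% called, against 17.9% of all tested genes. Parp1, the NAD-consuming polymerase of DNA repair, rose to 14.8 ± 0.303 FPKM with GCA, against 12.2 ± 0.477 FPKM with PBS (0.26, limma adjusted p = 0.00941). Nadsyn1 and Nmrk1, enzymes of NAD synthesis, rose with differences of 0.36 and 0.29 (limma adjusted p = 0.0277 and 0.0477), and Nadk, which phosphorylates NAD, fell with -0.24 (0.0279). These 3 calls were each lost without at least 4 of the 6 libraries in turn, and the count of higher genes was 1 without PBS replicate 2 or 3. Nmrk1 was not called under quantile normalization (0.0516). With no filter on low values, the calls of the genes named from the lists so far that were lost were those of Itga4, Angptl4, Igf1, Gas6, Cdh2, Cd47, Nadsyn1, Nadk and Nmrk1 (0.061 to 0.141).

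**Figure D3:**
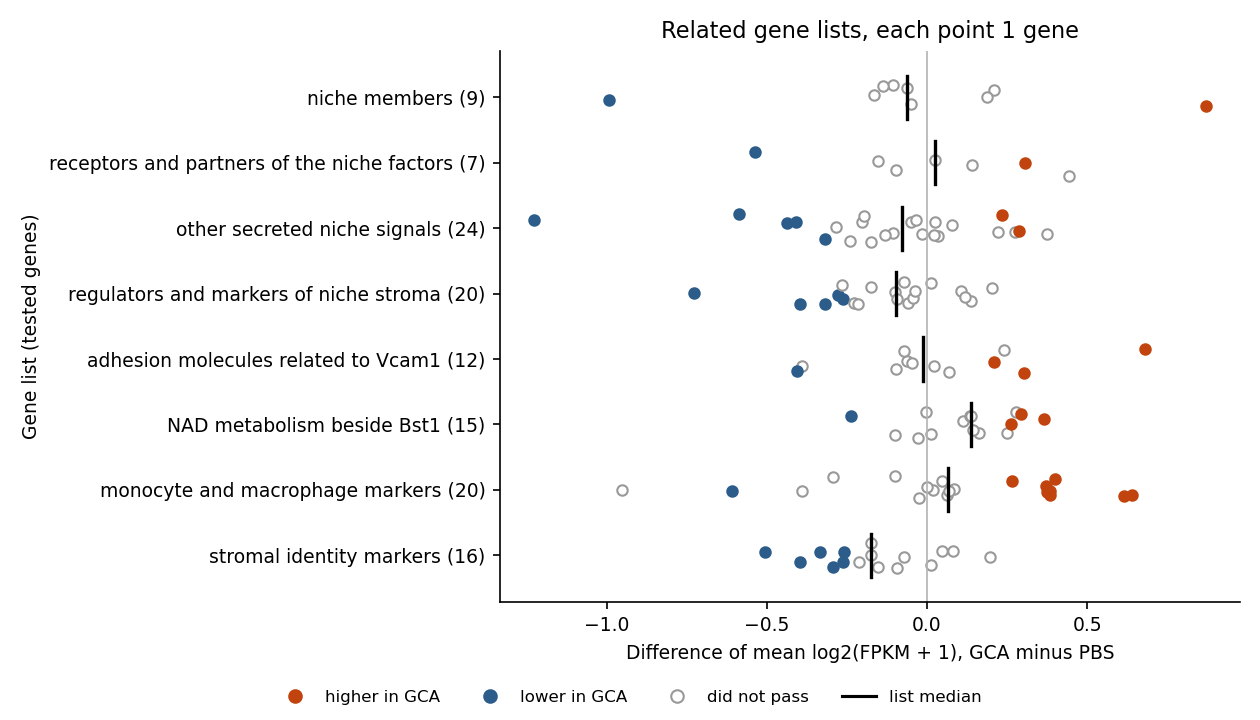
Differences GCA minus PBS on the log2(FPKM + 1) scale for the tested genes of the niche members and of the related lists. Each gene is 1 open point, filled where it passed (orange higher, blue lower with GCA), with the list median as a line. The endothelial list, with 1 tested gene, and the B cell and blood progenitor list, with 0, are not drawn. The regulators and markers of niche stroma hold 5 lower and 0 higher calls. Genes that stand in several lists, such as Pdgfrb and Prrx1, are drawn in each of them.

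The genes whose pattern was most like that of Vcam1 over the 6 libraries were Ube2c, a ubiquitin-conjugating enzyme of mitosis (Pearson r = 0.998), Cnot9 (0.998) and Il21r, the interleukin 21 receptor (0.998), out of 10909 genes compared. Ube2c was at 11.5 ± 0.302 FPKM with GCA and 6.60 ± 0.347 FPKM with PBS, and the adjusted p of Cnot9 was 0.0241 in limma and 0.0541 with the replicate block, and 0.0546 to 0.0886 without GCA replicate 1 or 3 or any PBS library. Il21r was at 8.84 ± 0.364 FPKM with GCA and 4.17 ± 0.340 FPKM with PBS. Most like Bst1 were Pkm, the glycolytic pyruvate kinase (r = 1.00 after rounding), at 191 ± 24.3 FPKM with GCA and 315 ± 7.23 FPKM with PBS, then Fbxl5 (0.998) and Sirpb1c (0.997). The points share their libraries and the split by treatment, so these values describe likeness only.

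Fbxl5, an iron-sensing ubiquitin ligase subunit, is also Bst1's neighbour: it lies on the opposite strand at chr5:43744615-43821638 and overlaps the start of Bst1, sharing 98 exon bases, 2.95% of Bst1's exons. The neighbours were looked up after the members' values were seen. Fbxl5 was at 15.95, 21.97 and 16.34 FPKM in the GCA libraries, against 35.5, 35.4 and 37.1 FPKM in the PBS libraries, and fell with a difference of -0.97 (SE 0.112, limma adjusted p = 0.00194). Like Bst1, it was highest within the GCA group in replicate 2. Gm42462 and Gm43181, predicted genes inside the bounds of Fbxl5, fell too, with 1.64 FPKM with GCA against 3.29 FPKM with PBS for Gm42462 and 1.03 FPKM with GCA against 3.86 FPKM with PBS for Gm43181 (limma adjusted p = 0.00681 and 0.0119), and Gm43181 lost its call without PBS replicate 3 (0.0501) and with the replicate block (0.0551). Within 500 kb of Bst1, 3 of the 7 other tested genes fell and 4 did not pass, while within 500 kb of Vcam1 none of 10 passed. Over all tested genes 17.9% passed, 6.43% as lower. The 3 that fell are Fbxl5, Gm42462 and Gm43181, which lie on the same strand within Fbxl5's bounds, so they may not be separate signals. Whether overlapping reads play a part was not tested.

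**Figure D4:**
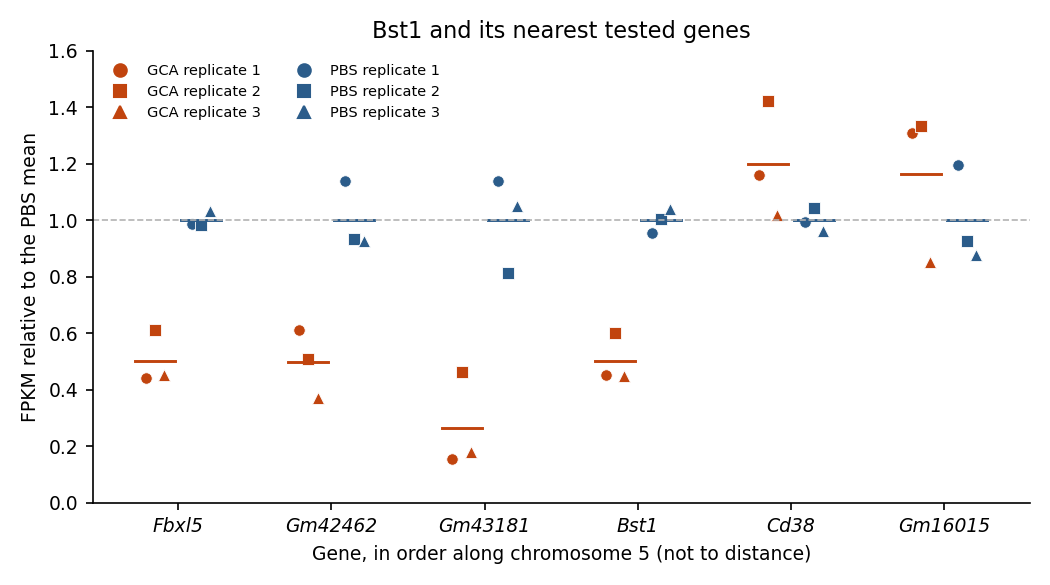
Levels of Bst1 and its nearest tested genes, in their order on chromosome 5, in the 3 GCA and the 3 PBS libraries, each as FPKM divided by that gene's PBS mean; lines are group means. All GCA points lie below all PBS points for Bst1, Fbxl5, Gm42462 and Gm43181, while those of Cd38 and Gm16015 overlap.

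The cell type was checked against markers. All 16 stromal markers were tested, and 0 rose, 6 fell and 10 did not pass (37.5% called, against 17.9% of all tested genes). Their summed level ran from 3740 to 4000 FPKM in GCA libraries and from 4262 to 4631 FPKM in PBS libraries. Pdgfrb and Prrx1, already counted among the regulators and markers of niche stroma, are among the 6 that fell. The counts of lower genes in these lists are thus not separate findings. Col3a1 fell to 171 ± 13.6 FPKM with GCA, against 244 ± 18.3 FPKM with PBS (-0.51, limma adjusted p = 0.00361), and Col1a2, Col5a1 and Col6a1 fell by less, in calls lost without at least 2 libraries in turn; the list had 3 lower genes without GCA replicate 1 or PBS replicate 2, and also with no filter, where these 3 collagen calls were lost (limma adjusted p of 0.0635 to 0.141). All 20 monocyte and macrophage markers were tested, none was at 0, and of them 8 rose, 1 fell and 11 did not pass (45% called). Cd68 rose to 944 ± 105 FPKM with GCA, against 614 ± 13.4 FPKM with PBS (0.61, limma adjusted p = 0.00221), and Mrc1, Laptm5, C1qb and C1qc rose with differences of 0.64, 0.40, 0.38 and 0.39. Lyz2 fell to 8879 ± 806 FPKM with GCA, against 13518 ± 814 FPKM with PBS (-0.61, limma adjusted p = 0.00241), a call lost under quantile normalization (0.438), as was that of C1qb (0.368). Quantile normalization sets values by rank within a library, so it can pull together genes near the top of the range, such as these. The loss therefore cannot show whether these differences are fragile. Each of these calls changed in 1 of 16 alternatives only. Without GCA replicate 2, the number of these markers that fell was 4. Adgre1 and Itgam, named after their values were seen, did not pass. Adgre1 was at 256, 420 and 224 FPKM in the GCA libraries, against 352, 382 and 330 FPKM in the PBS libraries, and Itgam (CD11b) at 24.9, 40.9 and 25.7 FPKM in the GCA libraries, against 36.7, 43.1 and 38.1 FPKM in the PBS libraries. GCA replicate 2 was the highest of its group for both, as it was for Bst1. The list was split on this: Lyz2, Cd14, Fcgr1, Fcer1g, Tyrobp, Ptprc, Cd163, Mertk and Spi1 were also highest in GCA replicate 2. Cd68, at 1028, 827 and 977 FPKM in the GCA libraries, was lowest in replicate 2. So were Mrc1, C1qa, C1qb, C1qc, Csf1r, Laptm5, Ctss and Lgals3. Vcam1, Bst1, Cxcr4, Itga4, Selplg, Sirpa, Spp1, Gas6, Tgfb1 and Igf1 are also made by myeloid cells. The part of macrophage RNA in these differences was not tested. Of 15 endothelial markers 14 were under 1 FPKM in all libraries, as were 10 of the 11 B cell and blood progenitor markers listed.

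The totals by which the values had been scaled were 17543509 to 18645932 fragments per library, below the 18929244 to 19943239 fragments recovered over all genes, and the reason was not tested. At these totals 1 fragment in a 2 kb gene is worth 0.0268 to 0.0285 FPKM. Correlations of log2(FPKM + 1) were 0.989 to 0.994 within groups and 0.981 to 0.985 between them, and no libraries were alike enough to be 1 library deposited again.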

How the data were processed

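The values deposited by the authors are 1 FPKM value (fragments relative to exon length in kilobases and to library size) per Ensembl gene and library; neither file headers nor labels name the unit, which was identified from the values. With exon lengths of GENCODE M21, 91.0% of matched values above 0 came out as whole fragments, to within 0.02 fragment, over 1 total per library. The submitters' processing notes name Bowtie 0.12.2, with the builds mm9 and mm8 and no role stated; no source used here gives the counting tool, annotation or strand setting. Coordinates are those of GENCODE M21 (GRCm38), to which 27204 of 27263 gene IDs matched.

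Genes averaging 1 FPKM or more across the 6 libraries were fitted with limma 3.58.1 (trend and robust moderation) in R 4.3.3 on log2(FPKM + 1), with treatment as the only term. Adjusted p is Benjamini-Hochberg over 11984 genes, two-sided, at a threshold of 0.05. A pseudocount of 1 understates fold changes of low genes. The fit was also run on simulated data that gave every gene the same spread, so that run does not measure error rates in these data. Alternatives covered filters, pseudocount, scaling, moderation, each library left out, the replicate number as a block, and limma-voom on recovered fragments. One of them, limma-voom on genes with a mean of at least 10 fragments, was added after seeing the data. Same-numbered libraries deviated from their group means with correlations of 0.082, 0.0287 and 0.0676, all under 0.1, so the numbers were not taken as pairs.

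The members and lists were chosen with earlier results of these data known. All members are named. From each related list the text names members that passed, at most 6 by smallest p, and, whatever their values, 12 receptors, ligands or paralogs of members: Cxcr4, Ackr3, Kit, Itga4, Itgb1, Tek, Il7r, Lep, Cd38, Ebf2, Ebf3 and Foxc2. For members that passed, the 3 most correlated tested genes with a proper gene name are also given.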

Additional observations from a re-analysis of the deposited data

How the results depend on the processing

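All 16 alternatives were run, giving 140 values for the 9 tested members, with Lepr left out because the reported fit did not hold it. Of these, 135 kept their direction and their side of the threshold, 3 passed where the reported value had not, and 2 changed sign. The 2 members that passed, Vcam1 and Bst1, passed under all 16. Kitl passed in limma-voom on recovered fragments, with a difference of 0.25 on the log2 scale at both filters, and its range with 1 library left out was 0.16 to 0.26. Foxc1 ranged from -0.145 to 0.0201, and changed sign without GCA replicate 1 (0.0201) and without PBS replicate 3 (0.0067), never near the threshold. Of the 11984 genes, 1380 passed as higher and 771 as lower. Without a filter these counts were 735 and 340, and limma-voom with a mean of at least 10 fragments gave 1158 lower genes. Leaving out 1 library gave 842 to 1317 higher and 390 to 771 lower genes. The number of members called was 4 in limma-voom with a mean of at least 10 fragments, where Kitl and Lepr also passed, against 2 in the reported fit. With the replicate block there were 1334 higher and 760 lower genes and again 2 members called. The libraries themselves correlated best within their own group. Deviations from the group means correlated best between GCA and PBS libraries of the same number, but weakly (0.082, 0.0287 and 0.0676). Quantile normalization gave 1198 higher and 1027 lower genes, and median centring 1271 and 927, so the higher share was 53.8% and 57.8%, against 64.2% as reported. Ackr3, which did not pass, turned to -0.021 under quantile normalization and ranged from -0.0411 to 0.121 with 1 library left out; Ebf3 ranged from -0.105 to 0.0209. Where calls or signs changed, the cause was not tested. Of the members, Lepr had the fewest fragments, 32 to 76 per library.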
